A study of Mus musculus with 4 samples.

Results

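The Zfp genes are mouse genes whose names begin with Zfp and a number, for zinc finger protein. They were taken from the gene name that the authors gave to each listed site of N6-methyladenosine (m6A), a methyl mark placed on adenosines inside messenger RNA. Of 5526 gene names with a listed site in the series, 94 were Zfp genes, and they held 146 distinct positions of the 25595 listed. Some positions were listed in several libraries, which brought the Zfp listings to 157, of 34741 in all. All 94 names matched a RefSeq symbol, and 93 were protein-coding there. The exception was Zfp36l1-ps, a pseudogene of Zfp36l1.

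The study sorted astrocytes, which support neurons and take up glutamate, and microglia, the immune cells of brain tissue, from mouse cortex, with 2 libraries of each. All 4 libraries came from APOBEC1-YTH mice, in which a cytidine deaminase is joined to the m6A reader domain YTH. The mice, 10 weeks old at the outset, were given tamoxifen at 20 mg/kg on 5 days, 24 hours apart, and were sampled 7 days after the last dose. No library lacks the transgene or the tamoxifen, the promoter that drives the transgene is not given in the sources used here, and the labels do not say whether the libraries of a type came from separate mice. The p-values below therefore measure only the spread between these libraries, which may be technical. GLORI, the assay used, turns unmethylated adenosine into a base read as G, so the level of a site is the share of reads that still carry A.

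Zinc finger proteins of this naming series mostly carry runs of C2H2 fingers, short loops held by a zinc ion that read DNA. Many also carry a KRAB domain, which recruits a co-repressor and silences mobile elements, and such genes lie in clusters of related copies. A few, such as Zfp36 and its relatives, carry CCCH fingers that bind AU-rich RNA and speed its decay.

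The libraries labelled astrocyte 1 and astrocyte 2 listed 12687 and 7231 sites, and microglia 1 and microglia 2 listed 6343 and 8480. Read depth is unknown. Of 30 astrocyte markers, 27 had a site in astrocyte 1 and 1 in astrocyte 2, against 0 in microglia 1 and 23 in microglia 2. Of 30 microglia markers, 2 and 24 had a site in the astrocyte libraries, against 19 and 1 in the microglia libraries. The replicate 2 libraries thus ran against their labels. The astrocyte to microglia contrasts of Zfp shares and median level below are therefore also given for replicate 1 alone. The fit to single sites is not, since replicate 1 has only 1 library of each type. Of 12 oligodendrocyte markers, 10 and 0 had a site in the astrocyte libraries, and 0 and 8 did in those of microglia, and no other marker list had a site in more than 2 genes of a library.

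The share of Zfp genes with a site was close to that of other protein-coding genes. Over the 4 libraries 93 of 397 protein-coding Zfp symbols had a site, which is 23.4% (exact 95% interval 19.3% to 27.9%), against 4716 of 21503 other protein-coding symbols, 21.9%. Such intervals cover counting only. In astrocyte 1 the shares were 13.9% of Zfp symbols and 12.7% of others, and in astrocyte 2 they were 7.30% and 6.86%. In microglia 1 they were 3.27% and 3.06%, and in microglia 2 they were 7.81% and 10.8%. The Zfp share was the higher in 3 of 4 libraries, with a mean difference of -0.319 points ± 1.85 (SD, n = 4; two-sided exact permutation p = 1). The other Zfp symbols had no listed site, which can mean unmethylated, below a calling threshold or unread.

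Each Zfp gene had few sites. In astrocyte 1, 56 genes held 64 sites, and in astrocyte 2, 30 genes held 39. In microglia 1, 13 genes held 15 sites, and in microglia 2, 32 genes held 39. This gave 1.14, 1.30, 1.15 and 1.22 sites per Zfp gene in these libraries, against 1.53, 1.37, 1.13 and 1.45 in other named genes. The Zfp value was the lower in 3 of 4 libraries, the difference averaged -0.167 ± 0.179 (SD, n = 4 libraries), and the exact permutation p was 0.25. Without astrocyte 1 the difference was -0.0944. Over all libraries 62 of the 94 genes had a single position, 18 had 2, 9 had 3, 4 had 4 and 1 had 5, a mean of 1.55, against 1.92 in other named genes. Genes with 5 or more positions made up 1.06% of Zfp genes and 6.28% of other named genes. The percent of genes with 2 or more sites was 14.3% in Zfp genes and 28.7% in other genes of astrocyte 1, and 23.3% and 22.7% in astrocyte 2. It was 15.4% and 8.95% in microglia 1, and 12.5% and 27.5% in microglia 2, so the sign differed between libraries (exact permutation p = 0.5).

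The comparison over libraries has 4 differences, so the smallest two-sided p it can give is 0.13, and it cannot pass a threshold of 0.05. A total of 10 measures was compared in this way, the share of protein-coding symbols with a site included. The Benjamini-Hochberg adjusted exact permutation p was 0.625 for 4 of them, 0.694 for 5 and 1 for the remaining measure. The libraries share their genes, and genes and sites were not treated as replicates.

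The levels of Zfp sites were high, though coverage was not given, so how many reads lie behind a level of 100% is unknown. The median was 100% in astrocyte 1 and 88.9% in astrocyte 2, while microglia 1 stood at 100% and microglia 2 at 69.2%. Other named genes stood at 66.7%, 80%, 100% and 58.3% in the same libraries. The Zfp median was above that of other genes in 3 libraries and equal to it in microglia 1. The mean was 89.5% ± 14.5 for Zfp genes and 76.25% ± 18.2 for other named genes (SD, n = 4 libraries), a difference of 13.3 points ± 14.2 (exact permutation p = 0.25), and of 6.60 points without astrocyte 1. Sites at 100% made up 51.6% of Zfp sites in astrocyte 1 (exact 95% interval 38.7% to 64.2%) and 27.0% of other sites there (25.8% to 28.3%). They made up 48.7% and 37.7% in astrocyte 2, 60% and 60.3% in microglia 1, and 20.5% and 15.2% in microglia 2 (exact permutation p = 0.25).

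Low levels were rare. Zfp sites under 50% numbered 5 of 64 in astrocyte 1 and 5 of 39 in astrocyte 2. They numbered 0 of 15 in microglia 1 and 5 of 39 in microglia 2. In other named genes 29.7%, 24.1%, 14.8% and 34.9% of sites were under 50%. The lowest Zfp level was 22.6% over 157 listings, in Zfp36l1-ps, against 10% over 11829 listings in other named genes. A larger set of listings can reach a lower minimum, so these 2 values are not a like comparison. Zfp sites alone in their gene and library had a median of 100%, and Zfp sites in genes with 2 or more had 75%. In other named genes these medians were 80% and 57.1%.

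High levels were also seen in zinc finger genes with other names. The genes with other zinc finger prefixes (Zbtb, Zkscan, Zscan, Zc3h, Zfhx, Klf and a few more) numbered 43, with 88 positions. Their median over all listings was 83.3%, as was that of Zfp genes, and 45.8% of their listings were at 100%, against 43.9% for Zfp genes. Set against them within libraries, the Zfp median was lower by a mean of -1.30 points (exact permutation p = 1). Of Zfp positions 6.16% were listed in 2 or more libraries, and of theirs 6.82%.

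**Figure D1:**
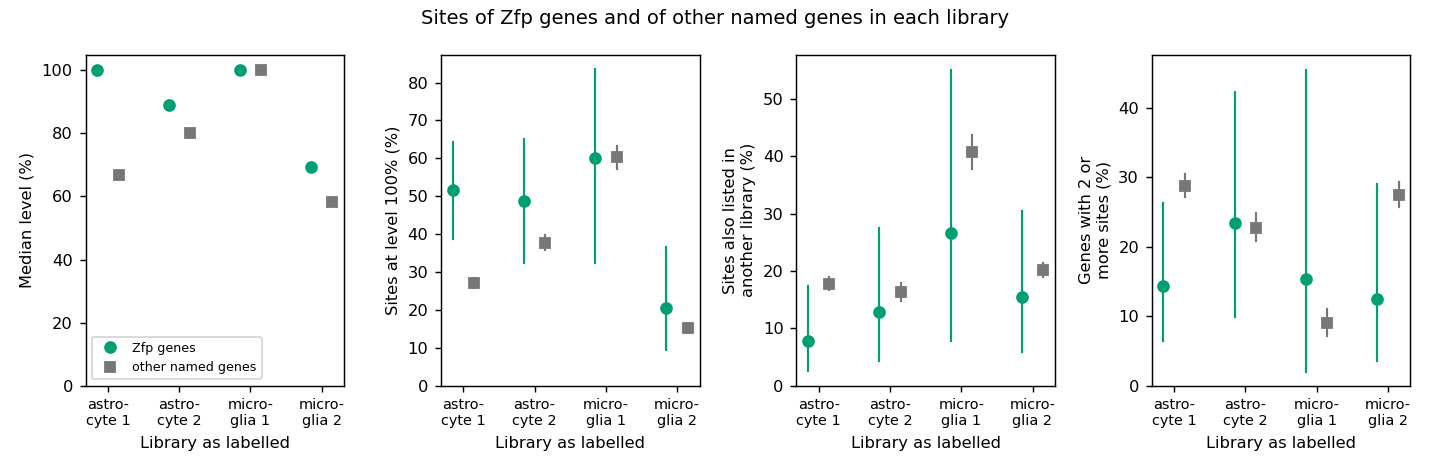
Values of Zfp genes (green circles) and other named genes (grey squares) in each library, as labelled; vertical lines are exact 95% binomial intervals for shares, and medians have none. The Zfp median level is at or above the other median in every library, and the Zfp share of sites listed in another library is below the other share in every library.

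The sequence at the sites is the 3-mer with the methylated A in the middle, and only GAC and AAC were listed. AAC made up 35.9% of Zfp sites and 32.3% of other sites in astrocyte 1, 46.2% and 34.8% in astrocyte 2, 33.3% and 43.3% in microglia 1, and 30.8% and 30.6% in microglia 2. The Zfp share was the higher in 3 of 4 libraries, by 1.29 points ± 8.85 on average (SD, n = 4; exact permutation p = 0.625), and without astrocyte 2 the difference was -2.08 points. Counting each position once, 54 of 146 Zfp positions were AAC, which is 37.0%, and 32.7% of positions in other named genes. Zfp levels at GAC and AAC had medians of 100% and 100% in astrocyte 1, 100% and 83.3% in astrocyte 2, 100% and 100% in microglia 1, and 61.5% and 70.7% in microglia 2, with no common direction. Over all libraries the medians were 83.3% at both 3-mers in Zfp genes, and 63.6% at GAC and 70% at AAC in other named genes.

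Of the 4 CCCH genes in the list of mRNA decay factors, Zfp36, Zfp36l1 and Zfp36l2 had sites, and Zfp36l3 had none. This is 75%, beside 23.4% of all protein-coding Zfp symbols. This list and the other lists of genes by role were chosen with earlier results of these data known. Their shares describe the lists and do not show enrichment. Their 10 positions gave 11 listings, with a median level of 57.7% and a range of 22.7% to 100%. All 157 Zfp listings had a median of 83.3%, and those of the 73 Zfp genes on no list had 100%. The KRAB list stood lower than the CCCH list, at 52.8% over 6 listings, and each remaining list stood at 80%. These medians pool libraries whose own medians differ, and they were not tested. Of the 6 KRAB listings 5 were of a single gene, Zfp445, in microglia 2 alone. The remaining KRAB listing, of Zfp809, stood at 100% in astrocyte 1. Zfp36, which encodes tristetraprolin, had 2 sites in astrocyte 2, at 22.7% and 57.7%, and 2 in microglia 1, at 80% and 50%. It had none listed in astrocyte 1 or microglia 2. These 4 positions lay within 616 nt of chromosome 7 (minus strand, 28076852 to 28077468), yet no base was common to both libraries, and the closest bases of the pair were 229 nt apart.

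Zfp36l1, a second decay factor, had its site at position 80155777 of chromosome 12 (minus strand) at 40% in astrocyte 2 and 56.3% in microglia 2. A site 735 nt away stood at 74.2% in astrocyte 2, and one at position 80159691 stood at 66.7% in microglia 1. Zfp36l2, also a decay factor, had 1 site at 100% in astrocyte 1 and 2 sites only 12 nt apart in microglia 1, at 50% and 100%, the closest pair of any Zfp gene. The pseudogene Zfp36l1-ps on chromosome X had the lowest single level of a Zfp gene. Its position 37270452 (plus strand) stood at 22.7% in the library astrocyte 2 and at 22.6% in microglia 2. A base 48 nt away stood at 42.9% in astrocyte 2, and another at 27.3% in astrocyte 1. Reads of Zfp36l1 and of its pseudogene may be hard to separate, so the split of sites between these names is uncertain.

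Among RNA-binding and translation factors, 4 of 7 listed genes had sites (57.1%, beside 23.4% of all protein-coding Zfp symbols). Zfp598, a ubiquitin ligase that acts on collided ribosomes, had 83.3% at 1 position in astrocyte 1 and 44.4% at another, 1491 nt away, in microglia 2. Zfp106, an RNA-binding protein, stood at 100% in astrocyte 2 and at 60% at a different base in microglia 2. Zfp638, a nuclear protein that binds nucleic acid, had sites at 80% and 100% in astrocyte 2 alone, 14442 nt apart. Zfp385a had 1 site, at 66.7% in astrocyte 1.

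Of the 6 KRAB repressors of imprints and retroelements, 2 had sites (33.3%, beside 23.4% of all protein-coding Zfp symbols). Zfp445, which guards imprinted loci, held 5 positions, more than any other Zfp gene, and all were listed in microglia 2 alone. Along chromosome 9 (minus strand) they stood at 33.3%, 37.5%, 50%, 69.2% and 55.6%. They formed 2 groups, with 329 nt between the first pair and 333 nt between the last pair, over a span of 10311 nt. Zfp809, which silences retroviruses in mouse stem cells, had 1 site at 100% in astrocyte 1. Zfp57, which also guards imprints, had none.

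Of 12 neural development genes, 7 had sites (58.3%, beside 23.4% of all protein-coding Zfp symbols). The list was chosen with earlier results of these data known, so this share is no measure of enrichment. Astrocyte 1 listed 5 of them, among 56 Zfp genes, and astrocyte 2 listed 2 among 30. Microglia 1 listed 0 among 13, and microglia 2 listed 1 among 32. With so few genes and the replicate 2 labels in doubt, no difference between the types can be read from these counts. In astrocyte 1 Zfp365 stood at 100%, Zfp521 at 87.5%, Zfp462 and Zfp536 each at 80%, and Zfp703 at 71.4%. Zfp703 had a second position in microglia 2, at 40% and 336 nt from the first. In astrocyte 2 Zfp24, needed for myelination, stood at 100% and Zfp292 at 77.8%. Each of the other 5, among them Zfp423 and Zfp335, had no listed site.

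Of 11 genes of general transcription, stem cells and cell cycle, 5 had sites (45.5%, beside 23.4% of all protein-coding Zfp symbols). Zfp281, a regulator of pluripotency, stood at 100% in astrocyte 1, and Zfp410, an activator of Chd4, at 80% there. Zfp131 stood at 100% and Zfp207, a spindle and kinetochore protein, at 80% in astrocyte 2. Zfp384 had sites 125 nt apart, at 77.8% in astrocyte 2 and at 66.7% in microglia 2.

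Of the genes on no list, Zfp219, a co-factor of Sox9 in mouse cartilage, had 4 positions, with 63.6% in astrocyte 1, 100% in microglia 1, and 87.5% and 62.5% in microglia 2. No base of Zfp219 was common to any pair of libraries. Zfp710 also had 4, of which 3 were in astrocyte 2, at 85.7%, 83.3% and 71.4%. The other, at position 79741263 of chromosome 7 (plus strand), stood at 83.3% in both astrocyte 1 and microglia 2. Zfp871 had 3 sites in astrocyte 2, at 83.3%, 60% and 42.9%, and 1 in astrocyte 1, at 75%. Zfp467, known in mouse for steering stem cells toward fat, stood at 100% in astrocyte 2, at 100% in microglia 1, and at 55.6% and 80% in microglia 2. Zfp513 had its 3 positions within 329 nt, at 100% and 81.8% in astrocyte 1 and 100% in astrocyte 2.

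**Figure D2:**
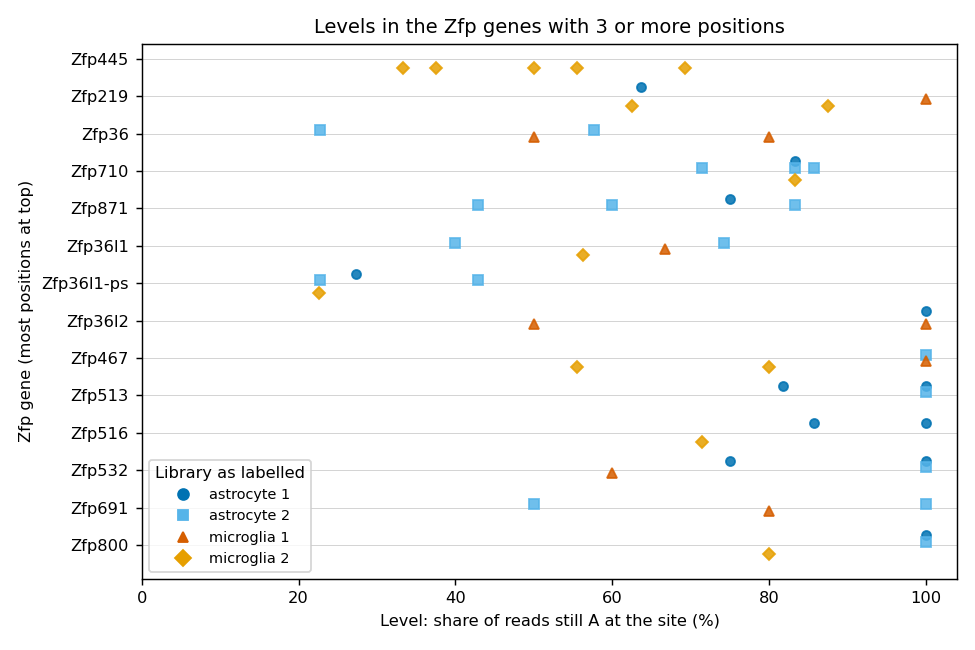
Level of each listed site (x axis, percent of reads still A) in the 14 Zfp genes with 3 or more distinct positions (rows), with 1 point per site and library. Zfp445 has points in microglia 2 alone, from 33.3% to 69.2%, and the points below 25% belong to Zfp36 (22.7%) and Zfp36l1-ps (22.7% and 22.6%).

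Few Zfp genes held several sites in a library. Within a gene and library there were 26 pairs of neighbouring Zfp sites, with a median distance of 675.5 nt and a range of 12 to 55086 nt. Other named genes had 3543 such pairs, with a median of 1080 nt. Of the Zfp pairs 6 were within 100 nt (23.1%), as were 16.0% of the other pairs. These 6 were in Zfp36l2 (12 nt), Zfp710 (22 nt), Zfp36l1-ps (48 nt), Zfp513 (68 nt), Zfp414 (69 nt) and Zfp213 (70 nt). Levels within a close pair could differ, as at 50% and 100% in Zfp36l2, or match, as at 100% for both sites of Zfp213. In Zfp414 both were low, at 30% and 40% in astrocyte 1.

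Counted by site, 9.38% of Zfp sites in astrocyte 1 had a neighbour within 100 nt and 9.80% of other sites did, and the shares were 10.3% and 10.4% in astrocyte 2. They were 13.3% and 4.66% in microglia 1, where 2 of 15 Zfp sites had a neighbour. In microglia 2 none of 39 Zfp sites had one (upper limit of the exact 95% interval 9.03%), and 9.35% of other sites did. The mean difference was -0.310 points ± 7.36 (SD, n = 4; exact permutation p = 0.625), and without microglia 2 it was 2.70 points.

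**Figure D3:**
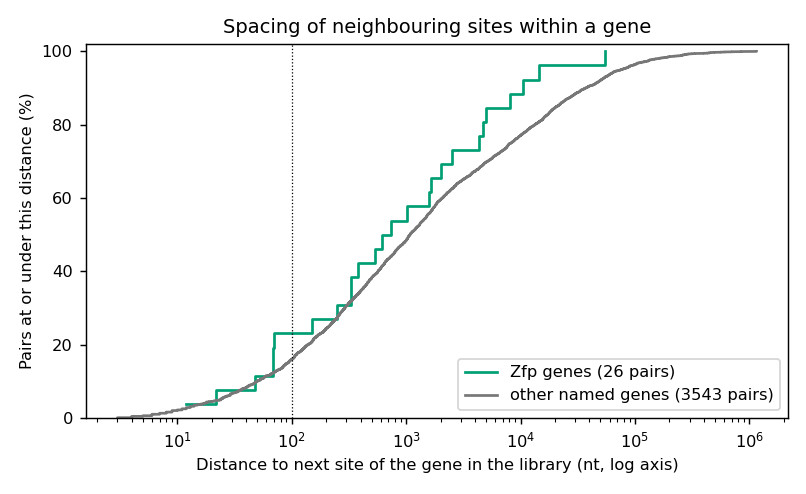
Cumulative percent of neighbouring site pairs within a gene and library (y axis) by the distance between them (x axis, nt, log scale), for 26 pairs in Zfp genes (green) and 3543 in other named genes (grey); the dotted line marks 100 nt. At that line 23.1% of Zfp pairs and 16.0% of other pairs are included.

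Sharing between libraries was low at Zfp positions. Of 64 Zfp sites in astrocyte 1, 7.81% were listed in another library (exact 95% interval 2.59% to 17.3%), against 17.8% of other named-gene sites. The shares were 12.8% and 16.3% in astrocyte 2, 26.7% and 40.7% in microglia 1, and 15.4% and 20.1% in microglia 2. The Zfp share was the lower in 4 of 4 libraries, by a mean of -8.06 points ± 4.89 (SD, n = 4), and the exact permutation p was 0.13, the smallest this comparison can give. Without astrocyte 1 the difference was -3.71 points, and against the other zinc finger prefixes it was -0.253 points.

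The 9 shared positions were Zfp105, Zfp248, Zfp316, Zfp36l1, Zfp36l1-ps, Zfp444, Zfp467, Zfp532 and Zfp710, with 1 in each gene. Zfp248 was the only gene with a site in all 4 libraries, at position 118405450 of chromosome 6 (minus strand, AAC), and it stood at 100% in every library. Zfp316 and Zfp532 stood at 100% in both astrocyte libraries, and Zfp105 at 100% in astrocyte 1 and microglia 1. Zfp444 stood at 100% in microglia 1 and 61.5% in microglia 2, the widest gap of the 9 at 38.5 points. Zfp467 stood at 100% and 80% in the same libraries. The level as listed was exactly equal in all its libraries at 5 of the 9 positions, and 4 of these were at 100%. Of 1021 shared positions in other named genes 285 were equal (27.9%), and 26.6% were at 100% in all their libraries. With 9 positions, no coverage and no test, the Zfp count is a description.

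Genes were shared more often than bases. A site was listed in 2 or more libraries for 28 of 94 Zfp genes (29.8%) and for 39.1% of other named genes. Of these 28 genes 9 had a base in common (32.1%), against 43.7% of the 2124 such other genes. In the other 19 Zfp genes, the closest bases of different libraries lay between 125 nt (Zfp384) and 11743 nt (Zfp142) apart. By library, genes also listed elsewhere made up 35.7% of Zfp genes and 57.7% of others in astrocyte 1, 56.7% and 57.4% in astrocyte 2, 76.9% and 66.2% in microglia 1, and 56.3% and 62.4% in microglia 2 (exact permutation p = 0.625). Without astrocyte 1 the mean difference turned from -4.56 to 3.53 points. Astrocyte 1 shared 12 Zfp genes with microglia 2, which is 21.4% of its own and 37.5% of those of microglia 2. In other named genes that pair shared 44.4% and 53.3%. For the astrocyte pair, 10 Zfp genes were shared, 17.9% of those in astrocyte 1 and 33.3% of those in astrocyte 2, against 21.9% and 40.2% in other named genes. For the microglia pair 5 were shared, 38.5% of those in microglia 1 and 15.6% of those in microglia 2, against 34.5% and 12.4% in other named genes.

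**Figure D4:**
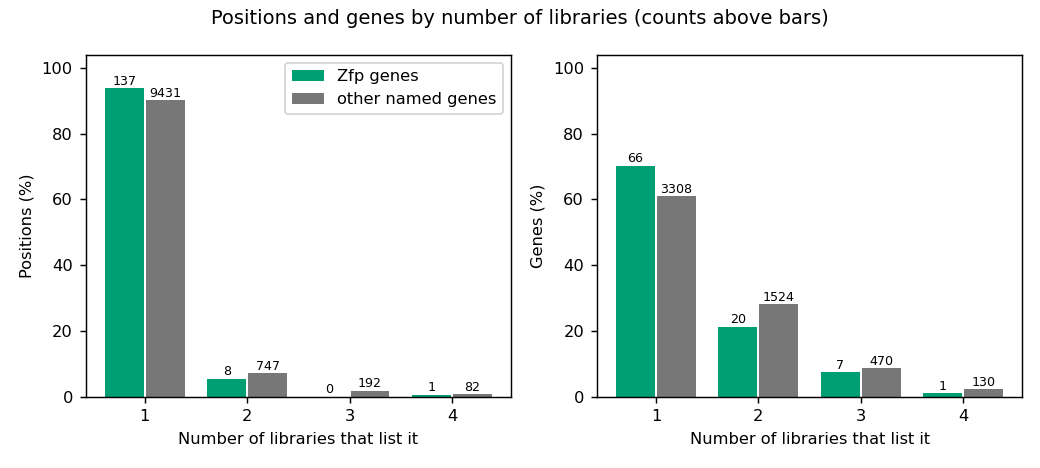
Percent of distinct positions (left) and genes (right) by the number of libraries that list them, for Zfp genes (green) and other named genes (grey), with counts above the bars. A single library lists 137 of 146 Zfp positions and 66 of 94 Zfp genes.

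The study's contrast of astrocytes with microglia was applied to the Zfp genes as labelled. Zfp sites made up 1.34% and 1.66% of named-gene sites in astrocyte 1 and 2, against 1.41% and 1.03% in microglia 1 and 2. The groups overlapped, and the difference was 0.279 points (exact permutation p = 0.667). In replicate 1 alone it was -0.0710 points. Zfp genes made up 1.78% and 1.75% of named genes with a site in the astrocyte libraries, against 1.38% and 1.23% in the microglia libraries. These groups did not overlap, and the difference was 0.458 points, but 2 libraries against 2 cannot give a p below 0.33, which was the value found by the exact permutation test. The exact 95% intervals overlapped, at 1.34% to 2.30% in astrocyte 1 and 0.738% to 2.35% in microglia 1. The difference was 0.394 points in replicate 1. Because the marker sites of both replicate 2 libraries run against their labels, the lack of overlap cannot be read as a difference between the cell types. The median Zfp level averaged 94.4% ± 7.86 in astrocyte libraries and 84.6% ± 21.8 in microglia libraries (SD, n = 2 each; exact permutation p = 1), and it was 100% in both libraries of replicate 1. Without microglia 2 the difference of 9.83 points became -5.56. Markers of astrocytes and oligodendrocytes were listed mainly in astrocyte 1 and microglia 2, and their part in these values was not tested.

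At the level of single sites, limma on the log2 odds of the level was fitted to the sites listed in all 4 libraries, over all genes. Of 354 sites that could be tested 0 passed an adjusted p of 0.05 (0%), with 16 at an unadjusted p under 0.05. The marker sites of both replicate 2 libraries run against their labels. A difference between the cell types could then count as spread within a labelled type. The lack of passing sites, here and in the wider fit below, therefore cannot be read as a lack of difference between astrocytes and microglia. The Zfp248 site was the only Zfp site among the 1100 listed in all 4 libraries. It stood at 100% throughout, so it has no spread and was not tested. When a listing in 1 library per type was enough, 5 Zfp sites entered and none could be tested. Zfp248 was tied, and the others had 1 library per type, which leaves no spread within a type to test against. Of the 694 sites tested 0 passed (0%). In neither fit was a Zfp site tested. With tied sites kept, the Zfp248 site entered the fit. Its equal level in all 4 libraries fixed the outcome in advance, so this was no test of it.

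The case of the 3-mer letters was examined after the values were seen. The tables give some 3-mers in lower case, which in genome files usually marks repeats, and no header explains it. The A was in lower case at 25 of 146 Zfp positions (17.1%) and at 4.72% of positions in other named genes. In genes with other zinc finger prefixes it was 3.41%. By library the share was 21.9% in Zfp genes and 4.89% in other genes of astrocyte 1, 20.5% and 5.63% in astrocyte 2, 0% and 11.7% in microglia 1, and 7.69% and 4.11% in microglia 2. The Zfp share was the higher in 3 of 4 libraries, with a mean difference of 5.94 points ± 13.2 (SD, n = 4; exact permutation p = 0.375), and microglia 1, with 15 Zfp sites, was the exception. Without it the mean difference was 11.8 points, and without astrocyte 1 it was 2.25 points.

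Lower-case sites were more frequent in Zfp genes that stand next to another Zfp gene among protein-coding genes in RefSeq. Of 397 protein-coding Zfp symbols 207 had such a neighbour, and 18.8% of these had a site, against 28.4% of the 190 without one (exact 95% intervals 13.8% to 24.8% and 22.1% to 35.4%). The 39 listed genes with a Zfp neighbour held 52 positions, of which 32.7% were in lower case, and the 54 without held 91, of which 8.79% were. In astrocyte 1 the shares were 34.4% with a neighbour and 9.68% without, and in astrocyte 2 they were 45.5% and 11.5%. In microglia 1 both were 0%, and in microglia 2 they were 9.09% and 7.41%. Genes with a neighbour also had fewer positions each, 1.33 against 1.69, and a higher median level, 100% against 80%. Examples with a lower-case site and a neighbour are Zfp30, Zfp809, Zfp810, Zfp871 and Zfp882. Neighbouring Zfp genes are often related copies, and how the authors treated reads that match several copies is not given in the sources used here, so the place of such a site is uncertain. No test was made of this split, which was chosen after the values were seen.

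**Figure D5:**
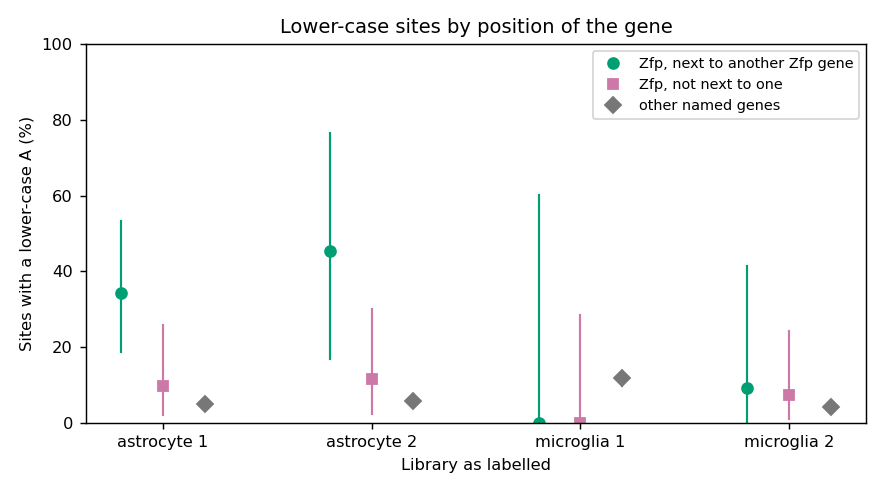
Percent of sites whose A is in lower case (y axis) in each library, for Zfp genes next to another Zfp gene (green circles), Zfp genes not next to one (pink squares) and other named genes (grey diamonds); lines are exact 95% binomial intervals. The green points lie highest in astrocyte 1, at 34.4%, and in astrocyte 2, at 45.5%.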

How the data were processed

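Each library has 1 headerless site table of 7 columns. Its level, a fraction that the authors deposited without coverage, is given as a percent, so read depth is unknown. GLORI-tools is named for calling in the series' design text, and the submitters' processing notes name STAR and mm39; thresholds were not stated. Positions are 1-based in mm39. No mm39 sequence was used here, so only 3-mers are shown. RefSeq names, classes and neighbours come from a GRCm38.p6 table.

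Zfp genes were set against other named genes within each library, and the 4 differences were tested by exact sign-flip permutation (scipy 1.17.1). Levels replaced planned read-count tests, so limma 3.58.1 (R 4.3.3) was run on log2 odds limited to 0.01 to 0.99, without a replicate block, with Benjamini-Hochberg adjustment; sites tied within types got no test. The code of both steps was run on simulated data, for some of the measures only. The simulation had more Zfp genes per library than these data, and no tied levels in limma. It checked the code and does not show how the steps perform on these data. Genes were named by rule: a position in 3 or more libraries, a site in all 4, the 10 with most positions, the 10 closest pairs, shared positions by level, and listed members of 5 role lists. Genes outside it (Zfp105, Zfp142, Zfp30, Zfp316, Zfp532, Zfp810, Zfp882, and those named without a site or shown by having 3 positions) were named after their values were seen. Members and lists were chosen with earlier results of these data known.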

Additional observations from a re-analysis of the deposited data

How the results depend on the processing

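For 13 results 125 alternatives were run, and 112 kept the direction of the difference or, for limma, the number of sites passing. The permutation comparisons cannot pass 0.05, and none of their p-values entered the count, so it is no measure of their stability. Read depth is unknown, and microglia 1 has only 15 Zfp sites.

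Against other zinc finger prefixes in place of all other genes, the Zfp difference turned to -1.30 points for the median level, -8.90 points for sites at 100%, 3.77 points for sites with a neighbour within 100 nt and 0.0132 points for genes with 2 or more sites. The neighbour difference also turned positive in replicate 1 libraries alone (4.12 points), at levels of 20% or more (0.0496 points) and with a window of 50 nt (0.377 points). The AAC difference was -3.18 points in replicate 1 libraries alone. The cause was not tested.

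Leaving out each library in turn, the Zfp differences ranged from -0.229 to -0.0944 for sites per gene, -9.61 to -2.47 points for genes with 2 or more sites, -3.30 to 2.70 points for neighbours, 6.60 to 17.7 points for the median level, 5.34 to 13.6 points for sites at 100%, -2.08 to 5.04 points for AAC, -10.7 to -3.71 points for shared sites, 2.25 to 11.8 points for lower case and -10.1 to 3.53 points for shared genes. Neighbours turned positive without microglia 2, AAC negative without astrocyte 2, and shared genes positive without astrocyte 1 (3.53 points) and without microglia 2 (0.0574 points). The astrocyte minus microglia difference ranged from 0.0914 to 0.467 points for Zfp sites, 0.379 to 0.536 points for Zfp genes, and -5.56 (without microglia 2) to 25.2 points for the median level.

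The replicate numbers are not stated to pair the samples, and deviations of the replicate 1 libraries from their group means correlated at -0.0703 over 354 sites. With replicate number as a block the 3 astrocyte minus microglia differences stay at 0.279, 0.458 and 9.83 points by construction. The design is balanced, so this checks nothing. Limma with this block passed 0 sites, with 10 at an unadjusted p under 0.05. Limma passed 0 sites in every alternative fit that used all 4 libraries. With the replicate 2 labels in doubt, these counts do not show that the cell types are alike. Sites at 100% have no alternative limited to levels below 100%. The lower-case and shared-gene measures, and runs without Zfp36l1-ps, were added after seeing the data; leaving out Zfp36l1-ps reversed no Zfp difference.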

Other observations

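The Zfp genes with a site were spread over 19 chromosomes, with chromosome 7 holding the most. It held 18 of 94 Zfp genes (19.1%), with 28 positions, and 6.68% of the other named genes. Chromosome 17 followed with 8 Zfp genes (8.51%) and 17 positions, against 4.07% of other named genes. Chromosome 7 carries several known clusters of KRAB zinc finger genes. The share of all Zfp symbols that lie on each chromosome was not counted. These shares therefore do not show which Zfp genes tend to have a site. They describe the listed genes and were not tested.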
